A study of Homo sapiens with 24 samples.

Results

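The transcripts described here belong by name to families of proteins that write, erase or read marks on histones and DNA, or that move nucleosomes. They were chosen by the gene name on the array design: the name had to begin with the symbol of a family of histone lysine methyltransferases or demethylases (MLL, SETD, SUV, KDM, JMJD, JHDM), histone acetyltransferases or deacetylases (KAT, HDAC, SIRT), arginine methyltransferases (PRMT), nucleosome remodelers (SMARC, ARID, CHD, BAZ), readers of histone marks (BRD, ING) or enzymes that add or oxidise DNA methylation (DNMT, TET). This rule took 126 of the 17535 catalog (mRNA) probes, which stand for 83 of its 15102 gene names, 28 of them with more than 1 probe. The rule itself uses no measured value. A family name does not show that each member acts on chromatin. ARID5A, for example, is described below as an RNA- and DNA-binding protein. The prefix also took up a pseudogene, BRD7P3, and the MLLT genes, which are named after their fusions with MLL in leukemia and are kept here as a list of their own. Of 92 core chromatin genes listed for naming, 51 had a probe among the 126, and the other 41 (EZH2, HDAC1 and SMARCA4 among them) were not analysed here.

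The cells were MRC5, a line of human lung fibroblasts. They were left untreated (control) or exposed to 0.2 mM H2O2 for 2 hr, called oxidative stress (OS) here, and the same 15 min of cycloheximide, which holds ribosomes on the RNA, came before harvest for the gradients of both conditions. Total RNA was measured together with 3 pools of a sucrose gradient, namely untranslated (fractions 1 to 9, free RNA-protein particles and single ribosomes), low (fractions 10 to 14, few ribosomes) and high (fractions 15 to 23, the heaviest polysomes), which gave 8 groups of 3 single-color arrays. The methods state that the RNA of each run of the procedure was prepared independently, but neither they nor the labels say which arrays belong to which run or whether the cultures were separate, so p-values measure the spread between these arrays.

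Chromatin regulators act as large, many-subunit machines in the nucleus, and their own mRNAs are translated in the cytoplasm like any other. MLL-family methyltransferases place methyl groups on lysine 4 of histone H3, the KDM and JMJD enzymes remove such groups from different lysines, and CHD and SWI/SNF complexes use ATP to slide or evict nucleosomes. An mRNA loaded with many ribosomes sediments deep in the gradient, whereas one that is stored or not yet initiated stays near the top, so the high pool minus the untranslated pool describes where in the gradient an mRNA was found. Hydrogen peroxide is known to slow translation initiation in fibroblasts.

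Each array received the same mass of RNA, labelled from the poly(A) tail, so a level is a share of the RNA in its own pool and not a number of molecules. In such bulk samples, fewer cells with a transcript and less of it per cell cannot be told apart. Levels are given as log2 of the array intensity after quantile normalization, and values near 3.2 lie at background. Of the 126 probes, 117 were well above background throughout at least 1 group and 78 on all 24 arrays, whereas 5 (for BRD3, CHD5, KDM4C, MLL and PRMT8) were above it on no array but 1. That array, replicate 3 of the low pool upon OS, stood apart from all others: 95.4% of catalog probes were above background on it, against 43.4 to 67.7% on the other 23 arrays. It enters no difference between total RNA, untranslated and high pools but widened the spread that all groups share in the fit, so the counts of called probes are also given without it. Before normalization the median catalog signal of the control untranslated arrays was 4.36 to 5.04 and that of the control high arrays 6.5 to 6.81, and the difference between pools therefore depends on the normalization. Fibroblast markers on the array (COL1A1, COL3A1, LUM and THY1) were above background on all 6 total RNA arrays, KRT5 (epithelial) and VWF (endothelial) on none. The probes of PTPRC (leukocyte) and CDH5 (endothelial) were also above background on all 6. Of the 2 epithelial markers on the array, the other was above background on some of these arrays but not on all.

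The first comparison asked where in the control gradient these mRNAs lay. In control cells 59 of 112 tested probes (52.7%) were higher in the high pool than in the untranslated pool at an adjusted p under 0.05 (limma, Benjamini-Hochberg over all tested probes), against 42.2% of the 9880 catalog probes tested. Only 11 (9.82%) were higher in the untranslated pool, against 31% of catalog probes. The median difference was 0.83 (log2), where that of all catalog probes tested was 0.35. The 3 control values of a pool lay wholly on one side of those of the other for 84 probes (75%), against 82.4% of catalog probes. Without the array that stood apart, 72 and 14 were called (64.3% and 12.5%, against 47.4% and 34.7% of catalog probes). Of the 59 called, 14 had no control untranslated array above background, as given below. With signal above background required on every array compared, 37 of 82 tested probes were higher and 11 lower. These are 45.1% and 13.4%, against 38.8% and 39.6% of catalog probes, and the medians were 0.46 and 0.00.

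How many probes fell on each side depended strongly on the scaling. Quantile normalization over all probes together gave 87 higher and 8 lower (77.7% and 7.14%, against 55.7% and 20.3% of catalog probes). Normexp background correction gave 92 and 8 (82.1% and 7.14%, against 57.7% and 21.8%), scaling to the 75th percentile 95 and 2 (84.8% and 1.79%, against 61% and 9.6%), and no normalization 107 and 0 (95.5% and 0%, against 83.1% and 3.83%). The median over catalog probes then rose to 1.06, 0.73, 1.64 and 2.85. The chromatin probes stayed above the catalog median under each of these 4 scalings, by 0.50, 0.33, 0.53 and 0.53, next to 0.48 in the values reported. Levels are therefore best read against the catalog median, and no test of this median was made.

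**Figure D1:**
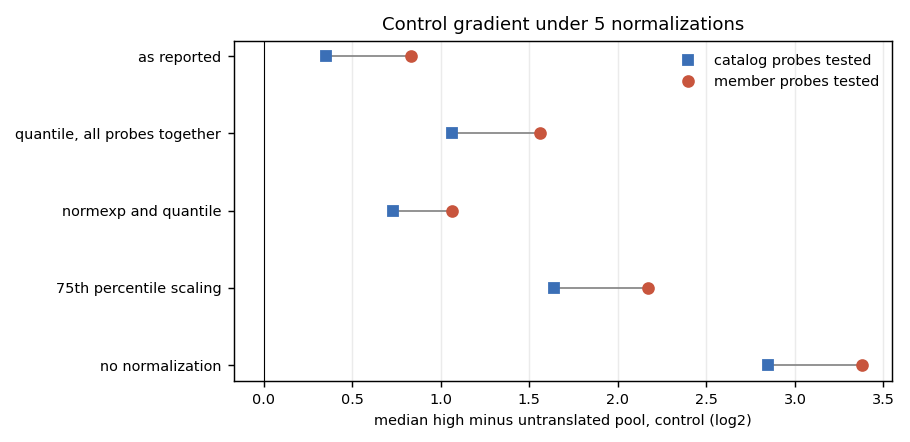
Median of the high minus the untranslated pool in control cells (log2, x axis) under 5 normalizations (y axis), for all catalog probes tested (squares) and for the chromatin probes tested (circles). The circle lies to the right of the square under each normalization, with both moving from 0.35 and 0.83 as reported to 2.85 and 3.38 without normalization.

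The families differed in how they lay. Their counts stand next to 42.2% of all catalog probes called higher and 31% called lower. Lysine demethylases had 11 of 14 tested probes called higher in the high pool and 1 called lower, with a median of 1.57. CHD and BAZ remodelers had 8 of 10 higher and none lower (median 1.01), and all 3 acetyltransferase probes (KAT2B, KAT6A and KAT8) were higher. Lysine methyltransferases had 15 of 23 higher and 1 lower (median 0.83), and SWI/SNF and ARID probes 8 of 15 higher and 1 lower (median 0.95). Deacetylases were more mixed, with 6 of 14 higher and 2 lower (42.9% and 14.3%, median 0.76). Enzymes of DNA methylation had a median of 0.40, close to that of the catalog, with 1 of 9 higher and none lower, but 6 higher and 1 lower without the array that stood apart. Readers had 4 of 11 higher and 2 lower (36.4% and 18.2%), and MLLT genes 2 of 9 higher and 1 lower (22.2% and 11.1%). Arginine methyltransferases were split, with PRMT1 higher by 2.18 and the 3 probes of PRMT2 lower. Without that array 9 deacetylase, 12 demethylase, 17 lysine methyltransferase, 5 reader and 3 MLLT probes were higher and 3 SWI/SNF and ARID probes lower, and the other counts were as given. The catalog shares were then 47.4% higher and 34.7% lower. Under the other 4 scalings each family had at least as many probes called higher (7 to 9 of 9 for the DNA methylation enzymes). The share of catalog probes called higher also rose, to between 55.7% and 83.1%. These scalings are meant in what follows. The other scalings moved the median of the arginine methyltransferases from −1.63 up to 1.29 (no normalization), while the medians of the 9 other families stayed positive. These are counts, and no difference between families was tested.

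**Figure D2:**
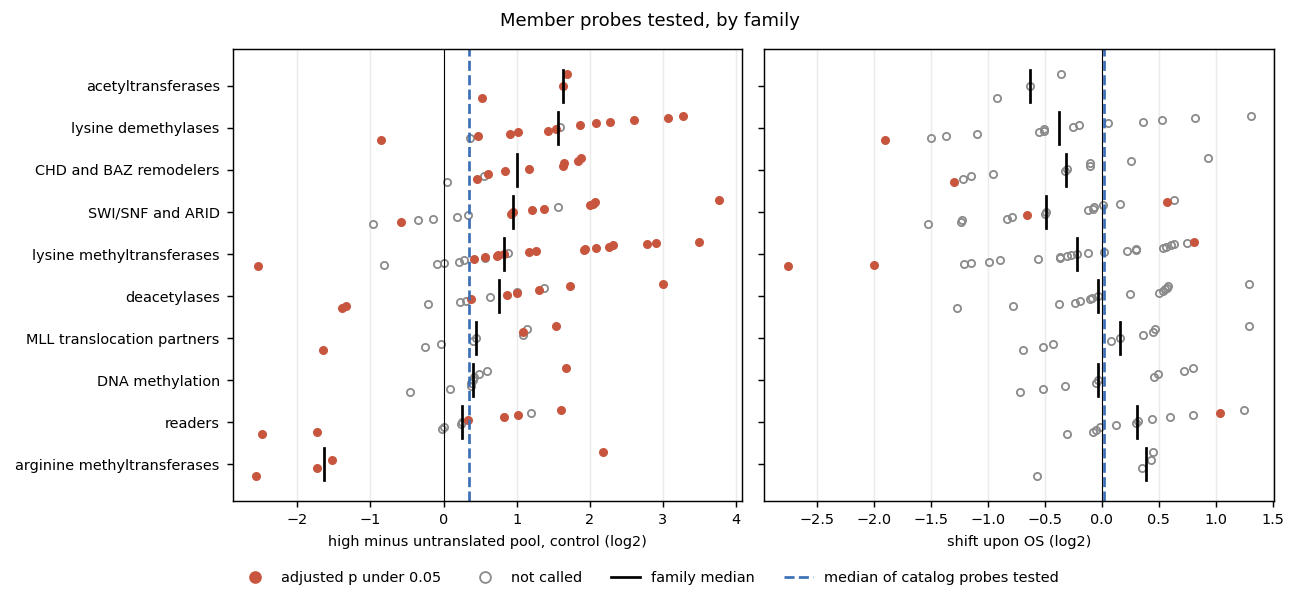
Each point is a tested probe, placed by family (y axis). The left panel gives the high minus the untranslated pool in control cells and the right panel how OS shifted this value, both on the log2 scale. Filled points passed an adjusted p of 0.05, black bars are family medians and the dashed line is the median of all catalog probes tested (0.35 on the left, 0.02 on the right).

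Several mRNAs were well above background in the control high pool and on no array of the control untranslated pool. ARID1A, a DNA-binding subunit of SWI/SNF, measured 9.35, 9.26 and 9.02 in the control high pool and 5.83, 4.71 and 5.79 in the control untranslated pool, where it was not well above background on any array. It was therefore at least 5.80-fold higher in the high pool (adjusted p = 0.000277 for the measured difference of 3.77, not for the bound). In the same way KDM1B, a histone H3 lysine 4 demethylase, was at least 1.36-fold higher (adjusted p = 2.98e-06), a SETDB1 probe (A_33_P3305399, a lysine 9 methyltransferase that silences repeats) at least 2.33-fold (adjusted p = 0.000139), an MLL3 probe (A_33_P3321275) at least 1.32-fold (adjusted p = 0.00055) and an MLL probe (A_33_P3307307) at least 1.67-fold (adjusted p = 8.69e-08). Of the 59 probes called, 14 were above background on none of the control untranslated arrays. These 14 passed the filter through the high pool alone, so their direction was largely set by it. The p-values given here beside a bound belong to the measured difference and not to the bound. Other large differences were those of JHDM1D (KDM7A today, a demethylase), with 3.27 ± 0.69 (SE), and HDAC4, a class II deacetylase, with 3.00 ± 0.74. Both were above background on 1 of 3 control untranslated arrays, so they too passed the filter only through the high pool.

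The opposite side held few genes. SUV39H2, which methylates histone H3 lysine 9 in heterochromatin, measured 11.12, 10.83 and 11.09 in the control untranslated pool and 8.46, 8.30 and 8.65 in the high pool, a difference of −2.54 ± 0.15 (SE, adjusted p = 2.83e-11) that kept its sign under every scaling but that without normalization, where it was 0.25. Its paralog SUV39H1 lay on the other side, with 7.69, 7.53 and 7.80 in the untranslated and 9.55, 9.60 and 9.69 in the high pool (1.94, adjusted p = 1e-10). PRMT2, an arginine methyltransferase and nuclear receptor coactivator, was lower in the high pool with all 3 of its probes (−2.57, −1.73 and −1.53), and all 3 turned to positive values without normalization, 1 of them also under scaling to the 75th percentile. ING3 and ING2, which read methylated lysine 4 within acetyltransferase and deacetylase complexes, differed by −2.49 ± 0.58 (adjusted p = 0.00108) and −1.73 ± 0.47 (adjusted p = 0.00353). Without normalization ING3 was at −0.05 (adjusted p = 0.857) and ING2 turned to 1.19, and under scaling to the 75th percentile ING2 was at −0.03 (adjusted p = 0.975). MLLT10 (A_24_P316102, −1.65), HDAC8 (A_24_P254965, −1.39), SIRT5 (A_32_P151366, −1.34) and JMJD5 (−0.86) were also lower in the high pool, but the sign of all 4 turned without normalization, and also when arrays were scaled to the 75th percentile. The other called probe on this side, for ARID5A (A_23_P143016, −0.58), turned to between 0.04 and 2.38 under the other 4 scalings.

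A second comparison asked whether OS moved these mRNAs between the pools. The shift is the log2 difference of the pools (high less untranslated) in OS cells less that in control cells, so it uses the control arrays already described and is not independent of them. Of 114 tested probes, 3 (2.63%) gained in the high pool relative to the untranslated pool and 5 (4.39%) lost, whereas 8.04% and 8.03% of the 10369 catalog probes did. The median was −0.09 against 0.02 for catalog probes, and for 46 probes the 3 differences between high and untranslated arrays of 1 number did not overlap between conditions (40.4%, against 39.7% of catalog probes). Called probes were thus not more frequent than in the catalog. Without the array that stood apart, 10 shifted toward and 16 away from the high pool (8.77% and 14%, against 16.7% and 14.4% of catalog probes). The split varied with the scaling. Quantile normalization over all probes gave 2 and 7 (1.75% and 6.14%, against 6% and 7.21% of catalog probes). Normexp gave 2 and 8 (1.75% and 7.02%, against 6.45% and 7.65%), and no normalization 1 and 9 (0.877% and 7.89%, against 3.19% and 8.42%). Scaling to the 75th percentile left no called chromatin probe and 8 and 6 in the whole catalog, with estimates of −2.05 for MLL2, −1.87 for KDM3B and −1.39 for CHD3. With that scaling and without the array that stood apart, 2 and 10 were called (1.75% and 8.77%, against 2.67% and 8.99% of catalog probes).

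Of the 5 probes called for movement away from the high pool, the 4 with the largest estimates are given below by their first 30 of 60 bases, 5′ to 3′, because each stands for a single stretch of a long mRNA and other probes of these genes could read differently. No part is marked by capitals. Positions are those of the array design on hg19 and cover the whole probe. The probe of MLL2 lies at chr12:49412780-49412839 on the minus strand, that of KDM3B at chr5:137772365-137772424, that of CHD3 at chr17:7816010-7816069 and the MLL probe at chr11:118395871-118395930, all 3 on the plus strand. The design files do not state the exon or UTR a probe lies in.
MLL2: gaggcaaagggcaagttttggattttgctt
KDM3B: ggactcctcttaatgtttccaaatgggaag
CHD3: ctgtcctgatcccctcttctgtatcaggtt
MLL: aagggaatctccgcacaaaagtgcagattg

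MLL2 (KMT2D today), which methylates lysine 4 of histone H3 at enhancers, gave 8.56, 8.23 and 8.43 in the control untranslated pool and 10.33, 10.44 and 10.32 upon OS. All 3 OS values lay above the control values, and the rise was 1.96 ± 0.14 (SE, log2, adjusted p = 2.76e-08). In the low pool it went from 8.85, 9.12 and 9.02 to 9.91, 10.03 and 9.61, the last on the array that stood apart (adjusted p = 0.00129 with it and 0.000171 without). The high pool changed little, with 10.63, 10.76 and 10.62 in control and 10.76, 10.34 and 10.77 upon OS, values that overlap. The difference between the pools of 2.26 in control was 0.26 upon OS, a shift of −2.0 ± 0.20 (adjusted p = 8.92e-06). In total RNA the transcript was lower upon OS, as given below.

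KDM3B, a demethylase of histone H3 lysine 9, also rose in the untranslated pool. Its control untranslated values were 7.90, 7.91 and 7.89, and those upon OS 9.91, 10.07 and 9.89, a rise of 2.05 ± 0.14 (adjusted p = 2.14e-08). In the high pool they overlapped, with 10.32, 10.21 and 9.98 against 10.44, 10.03 and 10.49. The shift was −1.90 ± 0.21 (adjusted p = 1.76e-05), and within the 3 slides, each of which held 1 array of every group, it was −1.88, −2.36 and −1.48. Unlike MLL2, its total RNA was not called changed (−0.15 ± 0.15, adjusted p = 0.79).

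CHD3, an ATPase of the NuRD remodeling complex, measured 10.85, 10.93 and 11.25 in the control untranslated pool and 11.95, 12.14 and 11.84 upon OS, a rise of 0.97 (adjusted p = 1.48e-05) without overlap. Its high-pool values fell from 12.75, 12.69 and 12.55 to 12.41, 12.21 and 12.35, a difference that did not pass the test (adjusted p = 0.165). The shift was −1.30 ± 0.18 (adjusted p = 0.000191). SMARCD1, a SWI/SNF subunit, shifted by less (−0.66 ± 0.17, adjusted p = 0.0152), and its value within the slides varied from −0.33 to −1.23. Without replicate 3 of the OS high pool its shift was not called.

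The largest estimate was that of an MLL probe (A_33_P3307307; KMT2A today, the lysine 4 methyltransferase rearranged in leukemia), but it rests on values near background. Its control untranslated values were 3.30, 3.27 and 5.21, none of them well above background, whereas those upon OS were 6.10, 6.96 and 6.63, 2 of them above background. The measured shift was −2.76 ± 0.51 (adjusted p = 0.002). With the control untranslated arrays set to the lowest signal well above background, the control difference between pools was only bounded at 0.74 or more, next to 0.73 upon OS, so these values set no lower limit on the size of the shift. The estimate was −0.75 with normexp, and the call was lost under scaling to the 75th percentile (−1.82, adjusted p = 0.0966) and without normalization (−1.88, adjusted p = 0.109). The second MLL probe (A_24_P136402) was also at background in the control untranslated pool, and its shift was −0.99 (adjusted p = 0.424). MLL3 (A_33_P3301306; KMT2C today), the paralog of MLL2, went from 7.99, 7.39 and 7.39 to 8.75, 8.83 and 8.95 in the untranslated pool, a rise of 1.25 (adjusted p = 0.004) with no overlap. Its shift of −1.21 ± 0.41 did not pass the test (adjusted p = 0.0739) and did without the array that stood apart (−1.24 ± 0.21, adjusted p = 0.000444). The other MLL3 probe (A_33_P3321275), above background on no control untranslated array, gave a shift of −0.37.

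**Figure D3:**
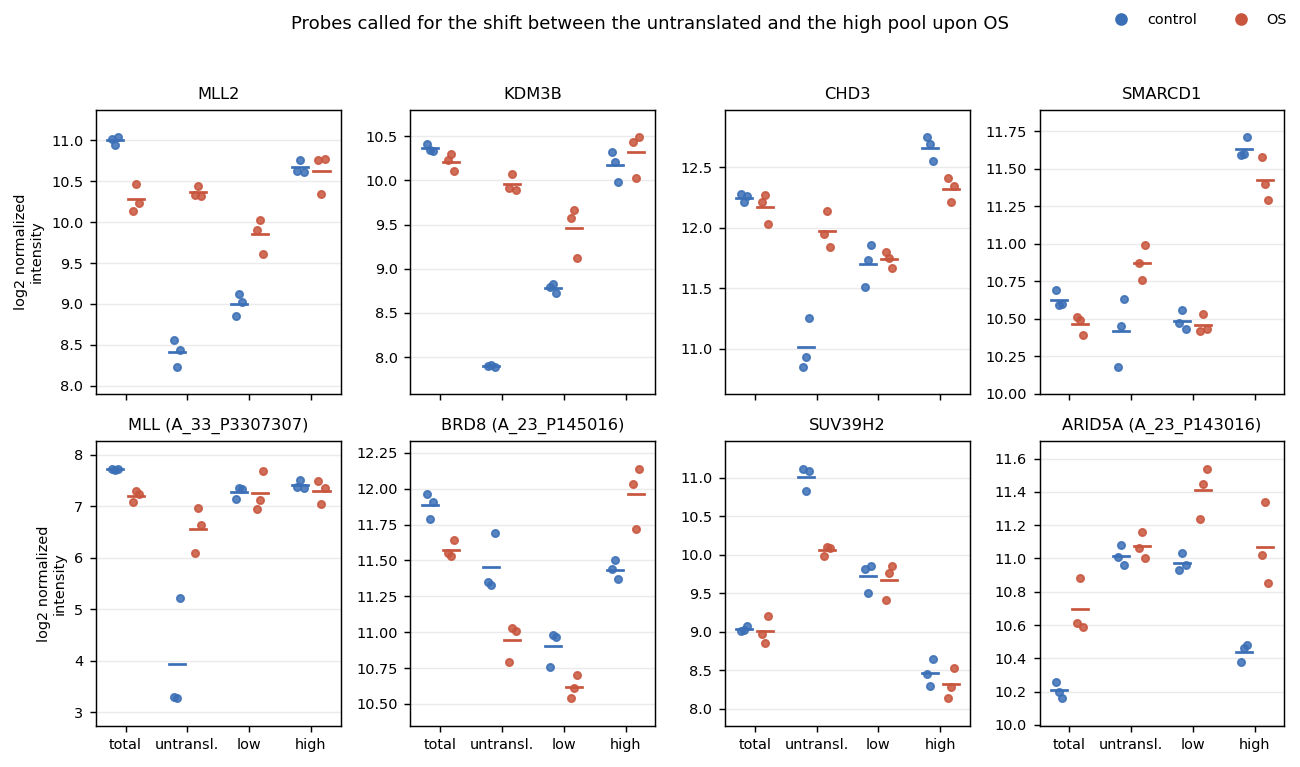
Log2 normalized intensity (y axis, a separate range in each panel) of the 8 probes called for the shift, in total RNA and in each of the 3 pools (x axis). Points are single arrays, blue for control and red for OS, and bars are means of 3. In the untranslated pool MLL2, KDM3B, CHD3, SMARCD1 and MLL lie higher upon OS and SUV39H2 and BRD8 lower.

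Movement toward the high pool was found for 3 probes. A BRD8 probe (A_23_P145016, a bromodomain protein of the NuA4 acetyltransferase complex) read 11.35, 11.33 and 11.69 in the control untranslated pool and 10.79, 11.03 and 11.01 upon OS, and in the high pool it rose from 11.44, 11.50 and 11.37 to 12.03, 11.72 and 12.14. The conditions did not overlap in either pool, and the shift was 1.04 ± 0.18 (adjusted p = 0.00135). SUV39H2 was lower in the untranslated pool upon OS, with 9.99, 10.10 and 10.09, a fall of 0.95 from control (adjusted p = 9.69e-05). Its high-pool values of 8.14, 8.29 and 8.53 upon OS overlapped those of control, and the shift was 0.81 ± 0.21 (adjusted p = 0.0203). Without replicate 1 of the control untranslated pool, replicate 2 of the control high pool or replicate 3 of the OS high pool this call was lost. ARID5A, an RNA- and DNA-binding protein known to stabilise inflammatory mRNAs, rose in the high pool from 10.38, 10.46 and 10.48 to 11.02, 11.34 and 10.85 and stayed at about 11 in the untranslated pool. Its shift of 0.57 ± 0.18 (adjusted p = 0.0471) lost its call under 20 of 25 alternatives, 11 of which left out 1 array, and a second ARID5A probe (A_33_P3389342) gave 0.16 (adjusted p = 0.94).

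Without the array that stood apart, further probes passed. Away from the high pool these were 2 of ARID1B (−1.57 and −0.85), JMJD1C (−1.54), ARID1A (−1.27), an MLL3 probe (A_33_P3301306, −1.24) and a CHD9 probe (A_24_P942250, −1.18). Further ones on this side were BAZ1B (−0.96), a SETDB1 probe (A_33_P3252479, −0.92), TET1 (−0.73), SETD1A (−0.56) and ARID5B (−0.50). Toward the high pool they were ING3 (1.28), a TET2 probe (A_33_P3238685, 0.82), both SETD4 probes (0.77 and 0.55), ARID3A (0.64), an HDAC8 probe (A_24_P254965, 0.55) and JMJD6 (0.54). Other probes of some of these genes differed. With all arrays kept, the other CHD9 probe (A_23_P372638) gave 0.26 and the other MLL3 probe (A_33_P3321275) −0.37, and the 4 TET2 probes ran from −0.52 to 0.80. ARID1A, JMJD1C and the first ARID1B probe (A_33_P3333078) were above background on none of the control untranslated arrays, so their estimates are no measured sizes. With those arrays at the lowest signal well above background, the control difference between pools was at least 2.54 for ARID1A, next to 2.53 upon OS, which bounds no shift. It was at least 1.46 for JMJD1C and 1.1 for ARID1B, next to 0.58 and 0.51 upon OS. ARID1A and SETDB1 overlapped between conditions and the others did not. JMJD6, an oxygenase of the JmjC family, illustrates the second set, with 9.97, 9.95 and 9.85 in the control untranslated pool, 9.40, 9.43 and 9.50 upon OS, and 11.45 to 11.52 in the high pool of both conditions.

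The third comparison asked which of these transcripts changed in whole cells. In total RNA 3 of 114 tested probes were up-regulated upon OS (2.63%) and 5 down-regulated (4.39%), against 3.07% and 3.06% of the 10630 catalog probes tested. The median was −0.23, where that of the catalog was −0.02. A negative estimate was found for 84 of the 114 probes and for 5562 of the 10630 catalog probes. The values of 73 probes (64%) did not overlap between conditions, against 48.3% of catalog probes. Without the array that stood apart, 4 rose and 19 fell (3.51% and 16.7%, against 5.67% and 7.71% of catalog probes). With normexp the split was 2 and 12 (10.5% lower, against 4.33% of catalog probes), without normalization 2 and 27 (23.7% against 9.41%), and with scaling to the 75th percentile 1 and 2 (1.75% against 1.55%). A fit of the total RNA arrays alone gave 9 and 38 (33.3% lower against 16.1%). Of the 8 called probes, 7 lost their call under scaling to the 75th percentile, among them ING1 (1.32, adjusted p = 0.159), TET1 (−1.30, adjusted p = 0.128), CHD9 (−1.05, adjusted p = 0.225) and MLL2 (−0.92, adjusted p = 0.365), with the direction kept. The median stayed below the catalog median by 0.15 to 0.22 under these settings.

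The rise with the smallest p was that of ING1, a PHD-finger protein and tumor suppressor that reads methylated lysine 4 and binds p53. Its probe begins as follows and covers chr13:111372118-111372177 on the plus strand (hg19).
ING1: gacaacgacgagtgccccatcgagtggttc

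ING1 read 9.20, 9.10 and 9.03 in control and 10.84, 10.49 and 10.73 upon OS in total RNA, a 2.99-fold rise (1.58 ± 0.13 on the log2 scale, adjusted p = 1.02e-07). It rose in each pool as well, by 1.26 in the untranslated (adjusted p = 8.06e-07), 1.09 in the low (adjusted p = 3.76e-05, and 1.20 without the array that stood apart) and 1.23 in the high pool (adjusted p = 3.53e-06). All OS values lay above all control values of the same RNA. Its shift was −0.02 (adjusted p = 0.968).

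BRD8 was read differently by its 2 probes, whose first 30 bases are shown because they lie apart in the gene. Probe A_23_P145016 covers chr5:137492724-137492783 and probe A_33_P3417517 chr5:137475490-137475549, both on the minus strand (hg19).
A_23_P145016: ccacacgacatgagctggaaaatctctctt
A_33_P3417517: cacatctttgttccatcggcttgatttaaa

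Probe A_33_P3417517 was at background in control total RNA, with 3.20, 3.21 and 3.25, and measured 5.51, 5.79 and 5.71 upon OS. This makes it at least 1.43-fold higher. The adjusted p of 0.00512 (limma) belongs to the measured difference of 2.45 and not to this bound, and the probe passed the filter through the OS arrays alone. With a filter on every array compared, 2 probes were called up-regulated and this one was not tested. In the high pool it went from 3.17, 3.16 and 3.24 to 4.74, 4.88 and 5.36, although it was above background there on none of the arrays. Probe A_23_P145016, whose level was far higher, had 11.96, 11.79 and 11.91 in control and 11.55, 11.53 and 11.64 upon OS (−0.31, adjusted p = 0.201). ARID5A (A_23_P143016) rose by 0.49 ± 0.13 in total RNA (adjusted p = 0.0204), from 10.26, 10.20 and 10.16 to 10.61, 10.88 and 10.59, and 8 of 18 alternatives lost this call. KDM6B, a demethylase of histone H3 lysine 27 that is known as an inducible gene, read 6.28, 6.14 and 6.14 in control and 7.21, 7.44 and 7.48 upon OS. These did not overlap, but the difference of 1.19 passed the test only without the array that stood apart (adjusted p = 0.544 with it and 0.0138 without).

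The most negative estimates were those of an MLL3 probe (A_33_P3321275, −1.17) and an MLL probe (A_24_P136402, −1.11), neither of them called. Among the probes called down-regulated the largest fall was that of TET1, a dioxygenase that oxidises 5-methylcytosine. It read 10.88, 10.80 and 10.65 in control and 9.69, 9.55 and 9.85 upon OS, a fall of 1.08 on the log2 scale (SE 0.23, adjusted p = 0.00542). In the low pool it fell by 1.48 (adjusted p = 0.000584), or by 1.10 without the array that stood apart, and in the high pool from 10.22, 10.28 and 10.04 to 9.58, 9.09 and 9.40 (adjusted p = 0.0418), whereas the untranslated values differed by −0.10 (adjusted p = 0.857). With quantile normalization over all probes together the call in total RNA was lost at an estimate of −1.10 (adjusted p = 0.0869), as it was in the authors' table (−1.10, adjusted p = 0.086). All 8 tested probes for DNA methylation enzymes, 3 of them for TET2 and 2 for DNMT3A, had negative estimates and values that did not overlap between conditions. Of the 10630 catalog probes tested, 5562 had a negative estimate and 48.3% did not overlap. Among the 8, TET1 alone passed (12.5%, against 3.06% of catalog probes lower). Without the array that stood apart 3 of the 8 passed, where 7.71% of catalog probes were lower, and without normalization 5, where 9.41% were. Normexp left 1 of the 8 called, where 4.33% of catalog probes were lower. Quantile normalization over all probes together and scaling to the 75th percentile each left 0, where 2.85% and 1.55% were. DNMT3B read 9.00, 9.09 and 9.02 in control and 8.45, 8.13 and 8.61 upon OS (−0.64, adjusted p = 0.451), and DNMT1 10.63, 10.62 and 10.73 against 10.41, 10.28 and 10.32 (−0.32, adjusted p = 0.868).

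CHD9, a remodeler of the CHD family, fell with 1 of its 2 probes (A_23_P372638), from 12.11, 11.87 and 11.95 to 11.02, 11.21 and 10.99, by 0.90 (adjusted p = 0.000178). The other probe (A_24_P942250) gave −0.59 (adjusted p = 0.843) and its values did not overlap either. MLL2 fell from 11.02, 10.95 and 11.04 to 10.14, 10.47 and 10.24, by 0.72 (adjusted p = 0.003), so that a lower share of total RNA went with a higher share of the untranslated pool. MLL5 (KMT2E today), which despite its name has no known methyltransferase activity, had 4 probes with estimates of −0.42 to −0.57, none of them with overlapping values. Of these, A_33_P3376239 (−0.47, adjusted p = 0.0364) and A_24_P196704 (−0.46, adjusted p = 0.0374) were called, and leaving out any 1 of the 6 total RNA arrays ended both calls.

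**Figure D4:**
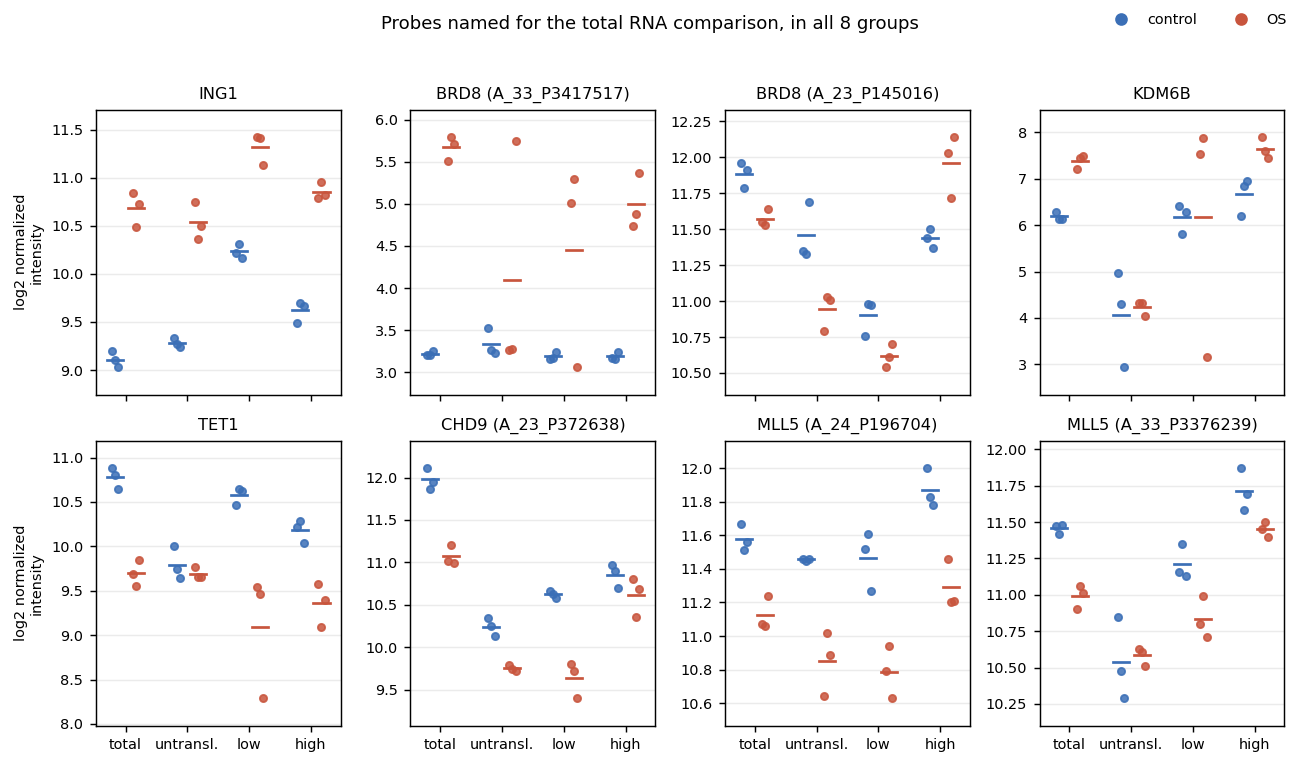
Log2 normalized intensity (y axis, a separate range in each panel) in total RNA and the 3 pools (x axis) for 6 of the 8 probes called in total RNA (all but ARID5A and MLL2), with the second BRD8 probe and KDM6B. Points are single arrays, blue for control and red for OS, and bars are means of 3. ING1 lies higher upon OS in all 4 RNAs, and TET1 lower in total RNA and the low and high pools.

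Several apparent changes rested on 1 array. In total RNA, control replicate 1 read 3.56 for an MLLT1 probe (A_33_P3282394), 3.56 for a SETD8 probe (A_32_P191527) and 3.64 for SMARCC1, where the other 2 control arrays read 13.49 and 13.57, 8.08 and 8.19, and 10.74 and 10.77. With all arrays these probes differed by 3.18, 1.63 and 2.34 upon OS, none of them called, and without that array by −0.13, 0.11 and −0.04. ING2 read 8.07 on OS replicate 1 and 10.98 and 10.95 on the others, and its difference of −1.02 became −0.06 without that array. The MLLT1 probe has the same sequence as a probe for a lncRNA of the array, so its signal cannot be assigned to either.

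Probes of the same gene often differed. In the control gradient, 25 genes had 2 or more tested probes. For 6 of them all tested probes were called in 1 direction, for 15 others the calls differed between probes, and for 4 no probe was called. HDAC8, among the 15, had its probes called in opposite directions (1.00 for A_23_P84922 and −1.39 for A_24_P254965). For the shift, 2 of 25 genes had some probes called and none all, and in total RNA 4 of 27 had some and none all. PRMT2 had all 3 probes called on the untranslated side. BRD3 gave 1.60, 1.02 and 0.00 with its 3 tested probes. Averaging the probes of each gene left 41 and 7 genes called in the gradient (53.2% and 9.09%, against 41.7% and 30.8% of catalog genes). In the shift 1 and 6 were left (1.28% and 7.69%, against 8.52% and 8.02%). In total RNA 2 and 2 were left (2.56% and 2.56%, against 3.32% and 3.29%).

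Genes that work with these proteins but whose names the rule does not take were read beside them, as 65 probes for 45 genes (cofactors, further subunits, Polycomb and heterochromatin proteins). In the control gradient 46 of 62 were higher in the high pool and 4 lower (74.2% and 6.45%, against 42.2% and 31% of catalog probes). The median was 1.18, against 0.35 for catalog probes. Without the array that stood apart 50 and 4 were called, where 47.4% and 34.7% of catalog probes were. For the shift, 2 of 63 moved toward the high pool and 5 away (3.17% and 7.94%, against 8.04% and 8.03% of catalog probes). Without that array 4 and 8 did, where 16.7% and 14.4% of catalog probes did. Movement away was thus about as frequent as in the catalog. Those that moved away included CREBBP, an acetyltransferase (−2.35 ± 0.40, adjusted p = 0.00121), 1 of 2 probes of CBX5, a heterochromatin protein (−2.04 ± 0.22, adjusted p = 1.8e-05), 1 of 3 of the corepressor NCOR1 (−1.49 ± 0.25), and a probe of ATRX, a remodeler (−1.25 ± 0.33). EED, a Polycomb subunit (0.61), and UHRF2, a reader of modified cytosine (1.08), moved the other way. In total RNA none of 62 rose and 5 fell (8.06% lower), against 3.07% higher and 3.06% lower among catalog probes. Those that fell included all 3 NCOR1 probes (−0.74 to −1.25) and the same CBX5 probe (−0.56). Without the array that stood apart 1 rose and 11 fell, where 5.67% and 7.71% of catalog probes did. The lists describe these arrays by their counts, and no difference between a list and the catalog was tested.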

How the data were processed

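The files hold 24 single-color Agilent arrays of MRC5 RNA on 3 slides, each with 1 array of every group. The authors scanned them and deposited the Feature Extraction 10.7.3.1 output, whose processed signal is an intensity with the background subtracted, and a table of log2 values, which served as an alternative. Per the labels, Partek was used, with no version given. The methods state that anomalous replicates were removed without naming them, and all arrays were kept here.

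The processed signal was log2 transformed and quantile-normalized separately for lncRNA and mRNA (catalog) probes, as the methods describe. The 178 probes marked as outliers on any array, none of them described here, and control spots were left out. The 8 groups shared 1 linear model (limma 3.58.1, R 4.3.3). A test required that all arrays of 1 of the groups compared were well above background, and a call an adjusted p under 0.05 (Benjamini-Hochberg, lncRNA and catalog probes together). Having 3 arrays per group limits precision. Where no array of a group was above background, a fold is a bound against the lowest signal well above background. Values within slides use the array of each group on that slide. The methods' thresholds (unadjusted p, fold classes) were not used. The steps were tested on simulated data.

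The probes and gene lists were chosen with earlier results of these data known. Genes were named by rule: per comparison the 10 largest called differences each way with non-overlapping values, all probes of those genes, and a list of core enzymes. The last are named where a result turns on them. The values of 1 gene counted among the partner genes are not reported here. Current symbols come from a RefSeq table of GRCh38.p14, matched by accession for 116 of 126 probes, with coordinates from the array files (hg19). Protein length was planned as a further feature and was not analysed here. Control untranslated replicates 1 and 2 share a number in their labels. Their log2 difference had an SD of 0.938, close to that of the other pairs of the group (0.929 and 0.995), so they were kept as 2, with their mean as an alternative.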

Additional observations from a re-analysis of the deposited data

Results flagged for a closer look

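For 8 probes the effect of OS differed between the high and the untranslated pool, by an interaction term (adjusted p under 0.05, limma). The difference of the 2 effects on the log2 scale was −2.76 for MLL (A_33_P3307307), −2.0 for MLL2, −1.90 for KDM3B, −1.30 for CHD3, −0.66 for SMARCD1, 0.57 for ARID5A (A_23_P143016), 0.81 for SUV39H2 and 1.04 for BRD8 (A_23_P145016). These are the probes called for the shift, and the value for MLL has a group at background.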

How the results depend on the processing

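No shift or total RNA value of a named probe changed sign under any alternative. In total RNA the counts of 3 higher and 5 lower became 1 and 2 when scaled to the 75th percentile (2.29% and 1.55% of catalog probes). With only the compared groups in the fit they became 9 and 38 (8.83% and 16.1% of catalog probes). The count of lower probes was 12 with normexp, 27 without normalization, 3 with no filter on dim probes, 2 with gene means, 19 without replicate 3 of the OS low pool and 30 when that array was left out and the 75th percentile used, a combination chosen after seeing the data. In that order these were 10.5, 23.7, 2.38, 2.56, 16.7 and 26.3% of those tested. Among catalog probes (genes for the means) 4.33, 9.41, 1.32, 3.29, 7.71 and 10.4% were lower. Leaving out 1 array in turn gave 2 to 3 higher and 3 to 5 lower, where 2.17 to 2.48% and 1.55 to 2.16% of catalog probes were. For the shift, 3 toward and 5 away became 0 and 0 (75th percentile) and 1 and 9 (no normalization). They became 10 and 16 without the OS low array and 6 and 9 with only the compared groups. In that order the catalog gave 0.0772% and 0.0579%, 3.19% and 8.42%, 16.7% and 14.4%, and 9.12% and 8.68%. Those away were 8 with normexp and 10 with the added combination (7.65% and 8.99% of catalog probes). Those toward were 1 with no filter, 5 with a filter on every array and 1 with gene means. The catalog shares toward were 2.03%, 15.4% and, for genes, 8.52%. Leaving out 1 array gave 1 to 3 toward (1 without control untranslated replicate 1 or control high replicate 2) and 4 to 6 away. The catalog then gave 4.63 to 8.66% toward and 5.81 to 7.88% away. Higher in the control high pool were 95 (75th percentile), 92 (normexp), 107 (no normalization) and 101 (added combination). In the catalog 61%, 57.7%, 83.1% and 68.4% were. With a filter on every array, 37 of 82 tested were higher (45.1%, against 38.8% of catalog probes). Lower were 2 (75th percentile), 0 (no normalization), 3 (added combination) and 7 with gene means. In the catalog 9.6%, 3.83%, 15.1% and, for genes, 30.8% were. Leaving out 1 array gave 53 to 56 higher and 11 to 13 lower, where 39.1 to 40.5% and 28.4 to 30.7% of catalog probes were.

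Control gradient values that changed sign were, without normalization, PRMT2 at 0.18, 1.20 and 1.39, SUV39H2 at 0.25, ING2 at 1.19, MLLT10 at 1.22, HDAC8 at 1.34, SIRT5 at 1.55, JMJD5 at 1.90 and ARID5A (A_23_P143016) at 2.38. Under scaling to the 75th percentile, with or without the OS low array, they were MLLT10 at 0.01, HDAC8 at 0.13, PRMT2 at 0.17, SIRT5 at 0.34 and JMJD5 at 0.69, and ARID5A was at 1.17 with that array kept, 0.04 with quantile normalization over all probes and 0.08 with normexp. JMJD5 also reached 0.00 with quantile normalization over all probes and in the authors' table and 0.01 with normexp. The cause was not tested.

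Same-numbered arrays did not deviate together (correlations of −0.22 to 0.33), so the numbers do not pair them. With a replicate block, 3 higher and 5 lower were called in total RNA (3.26% and 3.05% of catalog probes). The shift had 4 toward and 6 away (7.93% and 7.99% of catalog probes), and the gradient 61 and 11 (42.5% and 31.3%).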
